A study of Mus musculus with 12 samples.

Results

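The genes examined here encode structural proteins of the central myelin sheath. All 55376 symbols of the deposited count table were searched for 9 names, Mbp, Mag, Mog, Mobp, Cnp, Cldn11, Opalin, Mal and Ermn, and 9 of 9 were found. RNA-Seq was measured in 12 samples of oligodendrocytes sorted by FACS from C57BL/6 mouse brain at postnatal day 40, gated as positive for O1, a lipid antigen on the surface of oligodendrocytes that differentiate, and negative for CD45 of leukocytes. There were 4 samples per genotype, and each pooled cells of 2 brains. The genotypes were WT, Cnp-Cre Jab1fl/fl (Jab1 mutants) and p21CIP1-/- Cnp-Cre Jab1fl/fl (double mutants). Both mutant genotypes carried the Cnp-Cre allele and floxed Jab1 on both chromosomes, and only the double mutants carried the p21CIP1 deletion, in all cells of the body. Mice lacking p21CIP1 alone and mice with Cnp-Cre alone were not analysed here. Cnp-Cre recombines in the oligodendrocyte lineage from the late precursor stage and also in Schwann cells. Myelin was removed from the cell suspension before the sort.

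Compact myelin forms when the plasma membrane of an oligodendrocyte wraps an axon and its cytoplasmic faces are pressed together by basic proteins such as MBP, while CNP keeps cytoplasmic channels open between the layers. MAG sits on the innermost layer facing the axon, MOG on the outermost layer, and claudin-11 forms the tight junctions between the turns. The mRNAs of Mbp and Mobp are carried along the processes and translated near the sheath, and most genes of the group are switched on late, under transcription factors that include SOX10 and MYRF.

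The promoters of the members were compared in the 250 bases before each start that RefSeq gives for GRCm38.p6, where a window was listed for 8 of the 9 genes (all but Mbp). They were searched on both strands for the SOX core ACAAAG or ACAATG and for the MYRF letters CTGGCAC or CTGGTAC, which do not overlap each other. A SOX match was present in 5 of 8 windows (Mag, Mobp, Cnp, Opalin and Ermn), against 25.2% of all 32851 windows of the table, and a MYRF match in 3 of 8 (Mag, Mog and Cnp), against 5.93% of all windows. The 4 windows below are shown because Opalin had the largest fold difference between genotypes, Mag held both motifs, Mog held a MYRF match without a SOX match, and Cldn11 held neither. They are given 5′ to 3′ on the strand of the gene, with matches on either strand in capitals. They lie at chr19:41077114-41077363 (reverse strand), chr7:30914864-30915113 (reverse strand, of 3 windows listed the nearest to the annotated gene start), chr17:37023399-37023648 (reverse strand) and chr3:31149670-31149919 (forward strand).
Opalin: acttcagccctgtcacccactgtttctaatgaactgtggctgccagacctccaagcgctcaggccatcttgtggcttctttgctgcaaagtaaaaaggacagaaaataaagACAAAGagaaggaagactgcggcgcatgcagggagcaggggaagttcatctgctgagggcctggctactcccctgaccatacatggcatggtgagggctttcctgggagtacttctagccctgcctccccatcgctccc
Mag: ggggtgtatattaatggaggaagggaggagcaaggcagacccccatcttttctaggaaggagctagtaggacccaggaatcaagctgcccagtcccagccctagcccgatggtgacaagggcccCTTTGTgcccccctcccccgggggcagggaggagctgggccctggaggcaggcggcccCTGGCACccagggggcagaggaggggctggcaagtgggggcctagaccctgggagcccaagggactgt
Mog: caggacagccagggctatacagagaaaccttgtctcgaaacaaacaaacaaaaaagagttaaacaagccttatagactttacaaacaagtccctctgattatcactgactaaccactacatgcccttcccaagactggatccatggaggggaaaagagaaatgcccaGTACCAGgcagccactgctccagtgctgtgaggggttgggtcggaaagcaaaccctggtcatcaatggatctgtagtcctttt
Cldn11: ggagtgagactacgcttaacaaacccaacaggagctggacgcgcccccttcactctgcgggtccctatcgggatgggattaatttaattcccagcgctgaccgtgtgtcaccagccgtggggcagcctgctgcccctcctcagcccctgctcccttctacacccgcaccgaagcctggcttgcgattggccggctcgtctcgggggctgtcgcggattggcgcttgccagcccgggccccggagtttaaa

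The matches lay 139 bases before the start in Opalin (ACAAAG), 126 (ACAAAG) and 68 bases (CTGGCAC) before it in Mag, and 83 bases (CTGGTAC) before it in Mog. In Cnp the SOX match lay at -167 and the MYRF match at -81 from the start, Ermn held ACAATG at -234, and the window of Mobp held 6 copies of ACAAAG. No match in Cldn11 and Mal says only that these letters were not in the window, and a match is a description of the letters, not of binding.

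The counts per library summed to between 61485556 and 153495112, and the members were counted between 981 times (Opalin in Jab1-mutant replicate 3) and 2074196 times (Mbp in Jab1-mutant replicate 1), so the counting error of the reads, which carry no molecular identifiers, was small beside the spread between samples. Levels are given as CPM, the count relative to the library total after TMM scaling. Differences were tested on the counts with the quasi-likelihood test of edgeR, which covered all 9 members among 17716 genes that reached 1 CPM in 4 or more samples. Adjusted p-values follow Benjamini and Hochberg, and a gene was called below 0.05. Cops5, the gene of JAB1, was at 103 ± 39.7 CPM in WT, 66.9 ± 18.0 CPM in Jab1 mutants and 58.6 ± 21.5 CPM in double mutants (SD, n = 4), with overlapping samples. Cdkn1a, the gene of p21CIP1, was at 41.6 ± 31.4, 452 ± 124 and 88.4 ± 17.9 CPM (SD, n = 4), so its symbol still received counts in the samples labelled p21CIP1-/-. Counts per gene do not show which exons they came from. The sorted cells held the RNA of mature oligodendrocytes in every sample, and 0 of 20 markers of that list was without counts in any genotype. Astrocyte markers were also abundant, and their 14 genes summed to 7370 to 18682 CPM in WT, 5055 to 11211 CPM in Jab1 mutants and 5418 to 16349 CPM in double mutants.

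In WT oligodendrocytes the members took 2.36% to 4.56% of all counts, in Jab1 mutants 0.709% to 2.70% and in double mutants 1.10% to 2.86%. Within the group, a larger share of the counts was Mbp and a smaller share Cnp in both mutant genotypes. Mbp supplied 29.9% to 37.9% of the counts of the 9 genes in WT, 65.8% to 90.3% in Jab1 mutants and 56.0% to 73.2% in double mutants, and the WT range did not overlap either of the others. Cnp supplied 19.9% to 27.8%, 2.36% to 8.93% and 6.99% to 8.80% in the same order. Without Mbp, the other 8 genes took 1.48% to 3.07% of the library in WT, 0.136% to 0.686% in Jab1 mutants and 0.326% to 1.26% in double mutants.

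Levels of different genes were compared as CPM per kilobase of exon. The length was that of all annotated exons of a gene together, 8.123 kilobases for Mbp and 2.357 for Cnp. The order of Mbp and Cnp in WT depends on this length. In CPM before the division, Mbp was above Cnp in every sample of each genotype, with WT means of 10789 and 7522 CPM. In WT, Cnp stood first at 3191 ± 1669 CPM per kilobase, followed by Mbp at 1328 ± 550.1, Mal at 1225 ± 606, Mag at 1188 ± 617 and Mog at 1031 ± 528 (SD, n = 4). Mobp (639 ± 256 CPM per kilobase), Opalin (623 ± 332), Ermn (245 ± 117) and Cldn11 (109 ± 52.5) were lower. Per kilobase, Cnp was above Mbp and Mbp above Mal in 4 of 4 WT samples. Mal was above Mag in 3, Mag above Mog in 2 and Mobp above Opalin in 1 of the 4, so the order within these pairs was not fixed. In Jab1 mutants Mbp stood first at 1606 ± 1154 CPM per kilobase and Cnp second at 331 ± 262, and Opalin went from the seventh place to the last, at 31.8 ± 34.5. In double mutants Mbp was again first at 1551 ± 461 and Cnp second at 638 ± 315 CPM per kilobase. Mbp was above Cnp in 4 of 4 samples of each mutant genotype.

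**Figure D1:**
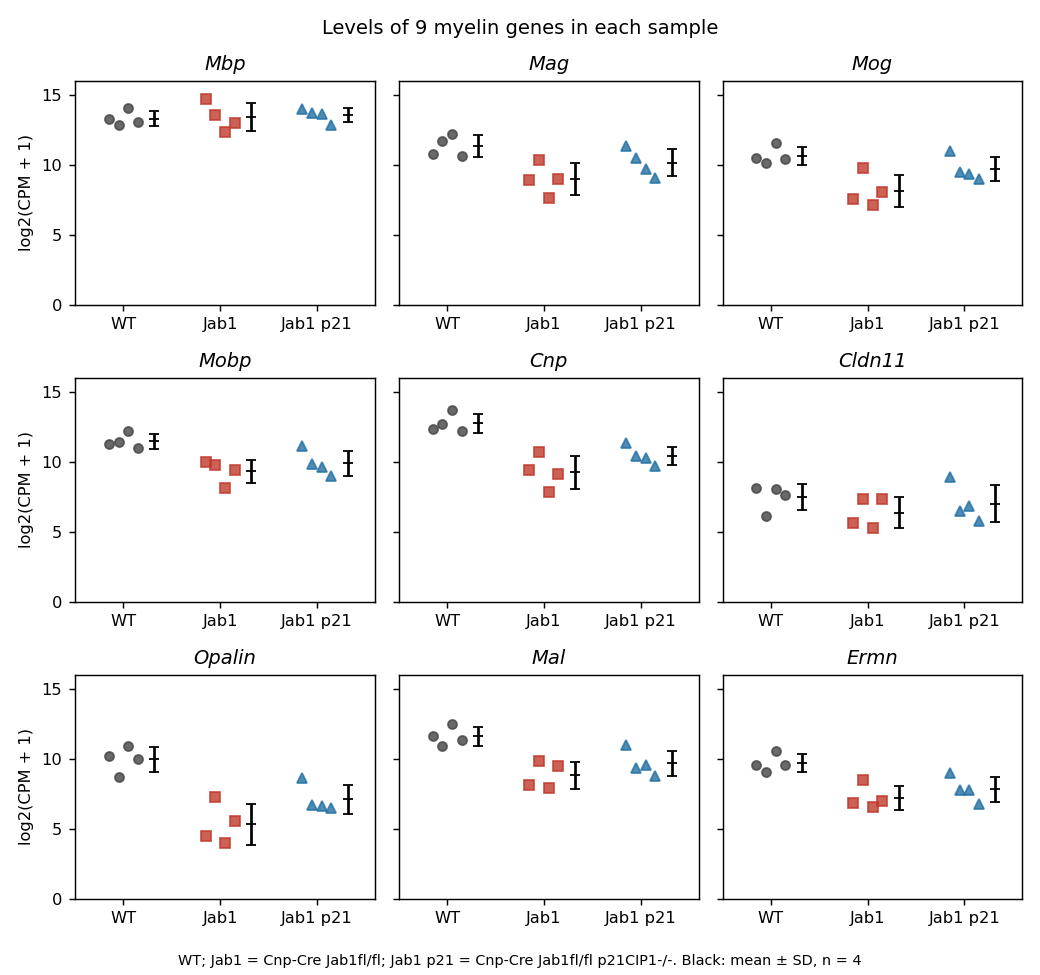
Level of each member in each sample, as log2(CPM + 1), for WT, Cnp-Cre Jab1fl/fl (Jab1) and Cnp-Cre Jab1fl/fl p21CIP1-/- (Jab1 p21), with the mean ± SD of 4 samples in black. The samples of the 3 genotypes overlap for Mbp, while for Cnp and Opalin all samples of both mutant genotypes lie below the WT samples.

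Comparing Jab1 mutants with WT asked how loss of JAB1 in the oligodendrocyte lineage changes the RNA of these cells. Of the 9 members, 7 were lower in Jab1 mutants (Opalin, Cnp, Mal, Ermn, Mog, Mag and Mobp), where 2.46% of all tested genes were called lower and 5.19% higher. The same 7 had all mutant samples below all WT samples, against 7.24% of all tested genes. Mbp and Cldn11 did not pass the test. The median log2 fold change of the 9 genes was -2.26, beside 0.02 over all tested genes. In bulk RNA of sorted cells, fewer cells of a type and less RNA per cell cannot be told apart. Only Cnp, Opalin and Mal were called whichever of the 8 samples was left out. The number of members called ranged from 3 to 7, while 174 to 667 of 17716 tested genes were called lower. Without Jab1-mutant replicate 2, the highest Jab1 mutant for 6 of the 7, the log2 fold changes were larger, at -5.39 for Opalin and -3.16 for Mog.

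Mbp encodes myelin basic protein, the main adhesive of compact myelin. Its WT samples (replicates 1, 3, 5 and 6) had 9973, 7236, 17278 and 8669 CPM, the Jab1 mutants (replicates 1 to 4) 26419, 12236, 5185 and 8338 CPM, and the double mutants (replicates 1, 2, 3 and 5) 16357, 13709, 12897 and 7447 CPM. The genotypes overlapped, and both the highest and the lowest of the 12 values belonged to Jab1 mutants. The mean was 10789 ± 4468 CPM in WT, 13044 ± 9371 CPM in Jab1 mutants and 12603 ± 3741 CPM in double mutants (SD, n = 4). Neither mutant genotype differed from WT beyond this spread, with a log2 fold change of 0.27 (SE 0.51, adjusted p = 0.811, edgeR) in Jab1 mutants and 0.21 (SE 0.41, adjusted p = 0.878, edgeR) in double mutants. Without Jab1-mutant replicate 1 the log2 fold change in Jab1 mutants was -0.33. The gene lies on chromosome 18 and also gives rise to the longer Golli transcripts, which other cells express and which share exons with the myelin forms, and counts per gene do not separate them.

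The other basic protein of compact myelin is encoded by Mobp (GRCm38, chr9:120149707-120181484, forward strand). WT samples had 2461, 2688, 4756 and 2079.9 CPM, Jab1 mutants 1015, 886, 279.7 and 674 CPM, and double mutants 2278, 922, 785 and 518 CPM. Every Jab1 mutant was below every WT sample, whereas double-mutant replicate 1 lay among WT and the other 3 double mutants lay within the range of the Jab1 mutants. Mobp fell by 2.07 on the log2 scale in Jab1 mutants (SE 0.45, adjusted p = 0.0196, edgeR), and the fall was not called without WT replicate 5 or Jab1-mutant replicate 4.

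Cldn11 encodes claudin-11 (chr3:31149920-31164324, forward strand) and was the member with the lowest level per kilobase in WT. It was measured at 279, 67.8, 273 and 198 CPM in WT, 47.3, 160.0, 36.6 and 163 CPM in Jab1 mutants and 480.5, 87.1, 116 and 54.9 CPM in double mutants. WT replicate 3 was as low as the mutants, and double-mutant replicate 1 was higher than every WT sample. The difference between Jab1 mutants and WT was within this spread (log2 fold change -1.01, SE 0.56, adjusted p = 0.323, edgeR).

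Cnp encodes the phosphodiesterase of the cytoplasmic channels (chr11:100574904-100591729, forward strand). Its levels were 5231, 6731, 13293 and 4833 CPM in WT, 689, 1659.8, 227 and 548 CPM in Jab1 mutants and 2571, 1342, 1261 and 845 CPM in double mutants. All 8 mutant samples were below all WT samples. The mean of Jab1 mutants was 10.4% of that of WT and the mean of double mutants 20%, and Cnp fell by 3.27 on the log2 scale in Jab1 mutants (SE 0.61, adjusted p = 0.0105, edgeR). The Cnp-Cre line carries Cre inserted in the Cnp locus, which disrupts that copy of the gene. Both mutant genotypes carried it and WT did not, so its part in the level of Cnp and that of Jab1 cannot be told apart in these samples.

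Mag and Mog encode the surface glycoproteins of the inner and outer layer, both of the immunoglobulin family. Mag (chr7:30899176-30914873, reverse strand) had 1769, 3402, 4805 and 1616 CPM in WT, 475, 1331, 196 and 511 CPM in Jab1 mutants and 2607, 1434, 847 and 540.1 CPM in double mutants. Mog (chr17:37010743-37023398, reverse strand) had 1424, 1144, 3093 and 1365 CPM in WT, 190.3, 878, 142 and 259 CPM in Jab1 mutants and 1987, 712, 649 and 517 CPM in double mutants. For both genes the Jab1 mutants lay below WT, with replicate 2 the highest of them, and double-mutant replicate 1 lay within the WT range. The falls in Jab1 mutants were alike in size, 2.21 on the log2 scale for Mag (SE 0.58) and 2.26 for Mog (SE 0.60), and the adjusted p of both was 0.0423 (edgeR). Their calls were the least stable of the 7. Both were lost without any 1 of the 4 WT samples or of Jab1-mutant replicates 1, 3 and 4, and also in an edgeR fit of all 12 samples (adjusted p = 0.0540 for Mag and 0.0503 for Mog) and without the filter on low counts (0.0617 and 0.0622).

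Opalin, a transmembrane sialoglycoprotein found in central but not in peripheral myelin, showed the largest fold difference of the 9 genes (chr19:41061710-41077113, reverse strand). It had 1205, 426, 1911 and 1039.9 CPM in WT, 21, 151, 14.4 and 46.9 CPM in Jab1 mutants and 407, 106, 97.0 and 88.1 CPM in double mutants. The highest double mutant was just under the lowest WT sample, replicate 3, and 3 of the 4 double mutants lay within the range of the Jab1 mutants. The level in Jab1 mutants was 5.10% of the WT mean and that in double mutants 15.2%, and Opalin fell by 4.29 on the log2 scale in Jab1 mutants (SE 0.78, adjusted p = 0.00909, edgeR).

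Mal encodes a proteolipid of lipid rafts that takes part in sorting proteins to the myelin membrane (chr2:127633226-127656695, reverse strand). Its levels were 3179, 1971, 5816 and 2640.4 CPM in WT, 278, 931, 240.4 and 705 CPM in Jab1 mutants and 2012, 667, 754 and 449 CPM in double mutants. Only double-mutant replicate 1 reached the lowest WT sample. Mal fell by 2.66 on the log2 scale in Jab1 mutants (SE 0.53, adjusted p = 0.0137, edgeR).

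Ermn encodes ermin, a cytoskeletal protein of late myelination that binds actin (chr2:58045113-58052864, reverse strand). The WT samples had 769, 522, 1503 and 774 CPM, the Jab1 mutants 114, 362, 93.5 and 128 CPM and the double mutants 505, 216, 215 and 109.6 CPM. No mutant sample reached the lowest WT sample, although double-mutant replicate 1 came close to it. The fall in Jab1 mutants was 2.36 on the log2 scale (SE 0.51, adjusted p = 0.0183, edgeR), and it was not called without Jab1-mutant replicate 1, 3 or 4. Ermn shares 237 exon bases with Galnt5 on the opposite strand, and whether the counting used the strand is not stated, but Galnt5 was at 2.48 ± 0.946 CPM in WT, 0.392 ± 0.453 CPM in Jab1 mutants and 0.226 ± 0.440 CPM in double mutants (SD, n = 4), far below Ermn.

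**Figure D2:**
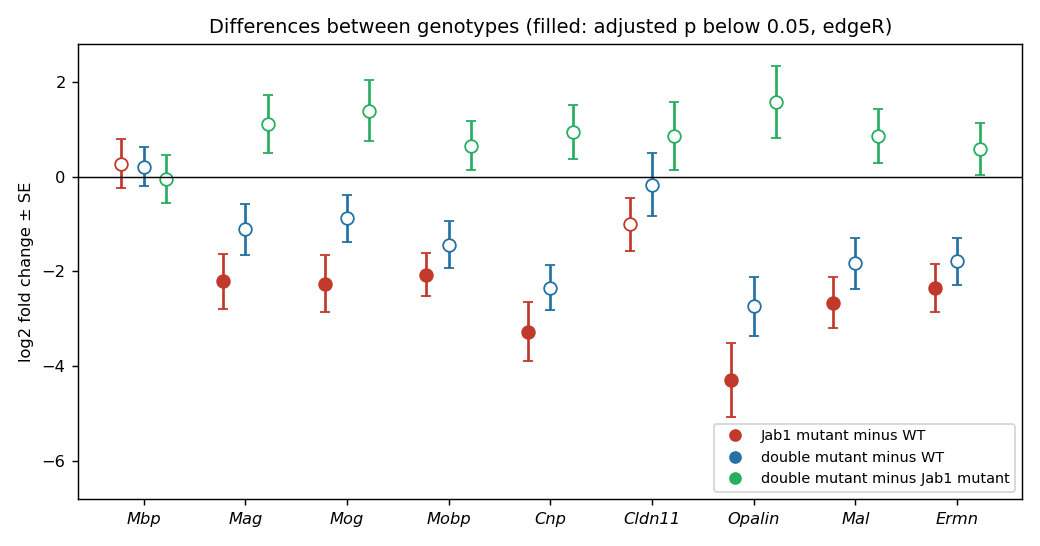
Log2 fold change ± SE of each member in the 3 comparisons of genotypes, filled where the adjusted p was below 0.05 (edgeR). Between Jab1 mutants and WT, 7 genes are filled, from -2.07 (Mobp) to -4.29 (Opalin), and none is filled in the comparisons with double mutants.

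Double mutants were compared with WT and with Jab1 mutants to ask what removing p21CIP1 changes. As compared with WT, 0 of 9 members passed the test in edgeR, where 0.0169% of all tested genes were called lower and 0.175% higher. At an unadjusted p below 0.05, 5 members were lower (Opalin, Cnp, Mal, Ermn and Mobp), against 4.57% of all tested genes, and DESeq2 called the same 5, where it called 1.12% of all tested genes lower. The samples of both genotypes did not overlap for 3 members, Cnp, Opalin and Ermn, against 3.58% of all tested genes. The 3 largest log2 fold changes were -2.74 for Opalin (SE 0.62, adjusted p = 0.110), -2.34 for Cnp (SE 0.48, adjusted p = 0.0878) and -1.83 for Mal (SE 0.53, adjusted p = 0.200). They were followed by -1.79 for Ermn, -1.43 for Mobp, -1.11 for Mag, -0.88 for Mog and -0.17 for Cldn11, and the median of the 9 genes was -1.43. In 9 of 9 genes replicate 1 was the highest of the double mutants, and without it edgeR called 5 members lower, against 0.406% of all tested genes.

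As compared with Jab1 mutants, 0 of 9 members passed the test in double mutants in edgeR, where 0.0% of the tested genes were called in either direction. At an unadjusted p below 0.05 in edgeR there were 0 members (beside 3.25% of the tested genes lower and 1.75% higher). DESeq2 on the 8 samples called 0 of the members it tested (0.378% of the tested genes lower and 0.113% higher). It gave no p for Opalin, whose log2 fold change there was 1.60 (SE 0.67). DESeq2 on all 12 samples tested Opalin and did not call it. Mog and Mag were higher at an unadjusted p below 0.05 in DESeq2 on the 8 samples, as were 486 of 17716 tested genes, with 725 lower. No member had separate samples, against 1.22% of tested genes whose double mutants were all higher and 1.99% all lower. The log2 fold changes of 8 members were above 0, from 0.59 for Ermn (SE 0.55) to 1.58 for Opalin (SE 0.77), and that of Mbp was -0.05 (SE 0.51). Their size rested on single libraries. Without double-mutant replicate 1 they were 0.73 for Opalin, 0.77 for Mog, 0.58 for Mag, 0.56 for Cnp, 0.21 for Mal, 0.06 for Mobp, 0.05 for Ermn and -0.24 for Cldn11. Without Jab1-mutant replicate 2 those of Opalin and Mog were 2.67 and 2.29. In either case 0 members were called, where 0 of all tested genes were called higher. The adjusted p-values were 0.968 or more in edgeR. All of these differences were within the spread between samples. These comparisons and the one of Jab1 mutants with WT share samples, so their values are given side by side and are not independent.

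Dividing each gene by Mbp in the same library needs no library size. A ratio shows unequal change of both genes and not which of them changed. In WT, 100 counts of Mbp were accompanied by 52.5, 93.0, 76.9 and 55.7 counts of Cnp, in Jab1 mutants by 2.61, 13.6, 4.38 and 6.57, and in double mutants by 15.7, 9.79, 9.78 and 11.3. For Mal, the WT samples were close to each other, at 31.9, 27.2, 33.7 and 30.5 counts per 100 of Mbp, and the Jab1 mutants had 1.05, 7.61, 4.64 and 8.45 and the double mutants 12.3, 4.86, 5.84 and 6.04. Opalin went from 12.1, 5.89, 11.1 and 12 counts per 100 of Mbp in WT to 0.0794, 1.24, 0.279 and 0.562 in Jab1 mutants and 2.49, 0.770, 0.752 and 1.18 in double mutants. In these 3 genes no mutant sample overlapped WT.

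Of the 8 ratios to Mbp, 7 were lower in all Jab1 mutants than in all WT samples, against 4.56% of the other 17715 genes, and the exception was Cldn11. The mean log2 differences ran from -2.24 for Mobp to -4.81 for Opalin, each with p = 0.0286 in a two-sided exact permutation test, the smallest that 4 against 4 samples allow, and an adjusted p of 0.319 over all 17715 ratios. For Cldn11 the difference was -1.22 (exact permutation p = 0.171). The same 7 ratios were lower in all double mutants than in all WT samples, against 5.06% of the other genes, from -1.21 for Mog to -3.11 for Opalin (exact permutation p = 0.0286, adjusted p = 0.425 over all 17715 ratios). Between double mutants and Jab1 mutants, 0 of 8 ratios had separate samples, against 0.378% of the other genes for higher ratios, and the log2 differences were 0.43 to 1.70 (exact permutation p = 0.114 to 0.686). All 8 ratios share the count of Mbp, so they are not independent, and the spread of Mbp between Jab1 mutants is in each of them. Against the mean of the 9 members instead, 3 ratios had separate samples between Jab1 mutants and WT. Cnp (-1.10 on the log2 scale) and Opalin (-2.32) were lower, against 0.344% of all tested genes, and Mbp was higher (2.49), as were 50.8% of all tested genes. In double mutants 6 ratios were separate from WT, with Cnp (-0.88), Opalin (-1.42), Mal (-0.49) and Ermn (-0.44) lower, against 0.333% of all tested genes, and Mbp (1.69) and Mog (0.47) higher, against 20.3%. Each of these 9 had an exact permutation p of 0.0286, with an adjusted p over all 17716 genes of 0.0558 in Jab1 mutants and 0.139 in double mutants. Each member is part of the mean, so these ratios are not independent either.

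**Figure D3:**
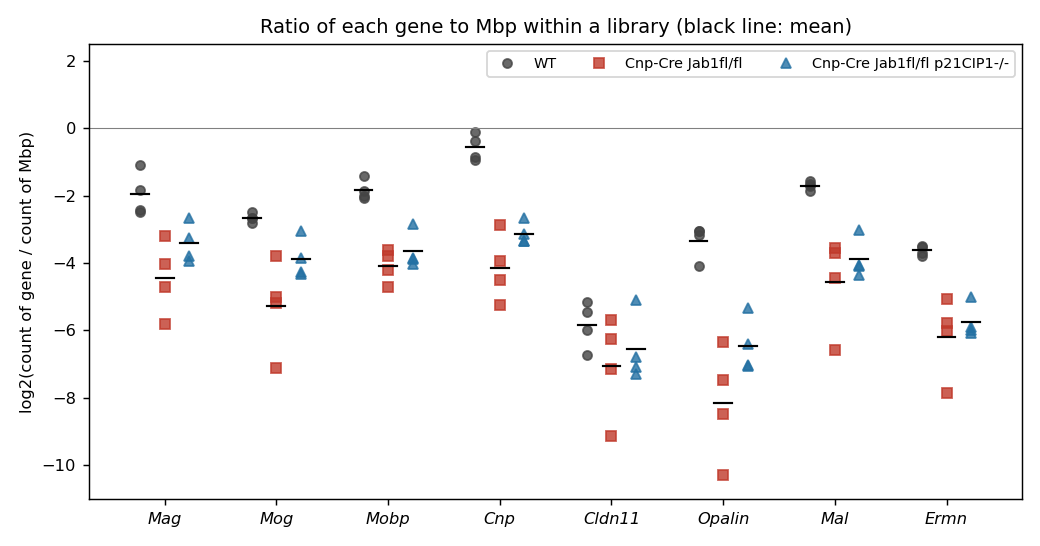
Log2 ratio of the count of each gene to the count of Mbp in the same library, 1 point per sample, with the mean of 4 samples as a black line. For 7 genes all points of both mutant genotypes lie below the WT points, and the ratios of Cldn11 overlap.

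The members were set beside 20 other markers of mature oligodendrocytes, of which 11 fell in Jab1 mutants with a median log2 fold change of -2.13, and 20 of 20 were below 0. The mean log2 level of the 8 members other than Mbp stood above that of the markers by 1.91 to 2.77 in WT, 1.85 to 2.81 in Jab1 mutants and 1.52 to 2.37 in double mutants, so the ranges overlapped. The level of Mbp stood above the markers by 4.63 to 5.50 in WT, 6.43 to 9.88 in Jab1 mutants and 5.87 to 7.30 in double mutants, without overlap between WT and either mutant genotype. No test was run on these 2 differences. The markers fell while the median of all tested genes was 0.02, so a gene of unchanged level also stands further above them in Jab1 mutants. How many of all tested genes did so without overlap was not computed for the markers. Against the mean of the members, 50.8% of all tested genes were higher without overlap in Jab1 mutants and 20.3% in double mutants.

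**Figure D4:**
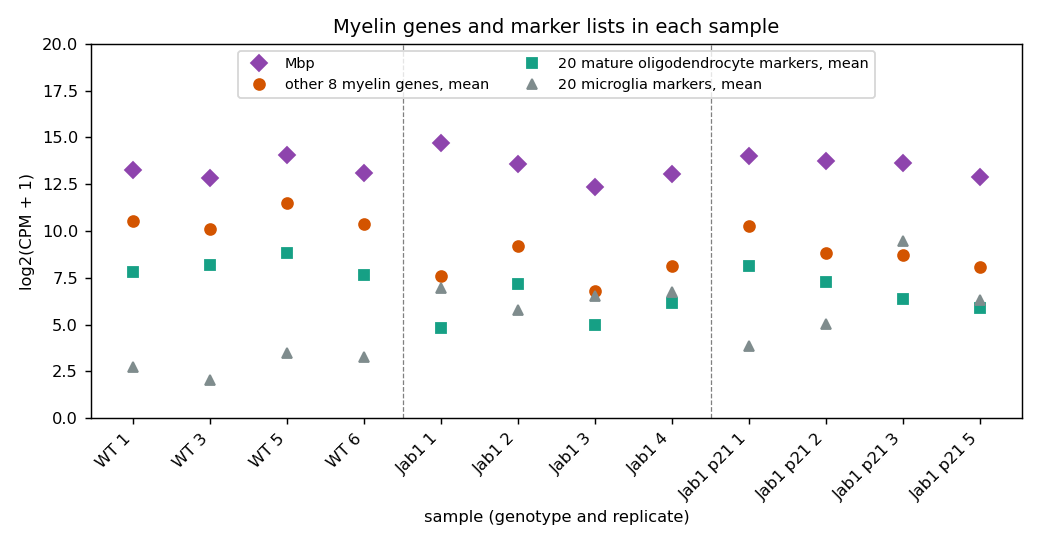
Log2(CPM + 1) of Mbp and mean log2(CPM + 1) of the other 8 members, of 20 mature oligodendrocyte markers and of 20 microglia markers in each of the 12 samples. The mean of the 8 members follows that of the oligodendrocyte markers, Mbp stays between 12.3 and 14.7 throughout, and the microglia markers are lowest in WT (2.05 to 3.46).

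Markers of other cells moved with genotype as well. Of 20 microglia markers, 20 rose in Jab1 mutants (median log2 fold change 3.85), and their sum was 121 to 358 CPM in WT, 1386 to 3537 CPM in Jab1 mutants and 494 to 24479 CPM in double mutants. The highest sum was that of double-mutant replicate 3, while replicate 1, with the highest levels of all 9 members among double mutants, had the lowest sum of that genotype. Ptprc, the gene of CD45, which the sort should exclude, was at 0.454 ± 0.720 CPM in WT, 63.9 ± 31.6 CPM in Jab1 mutants and 29.9 ± 47.6 CPM in double mutants (SD, n = 4). The authors reanalysed sorted cells of all genotypes by cytometry and reported no overt CD45+ contamination. They did not entirely exclude a small share of other cells. Endothelial markers rose in 7 of 12 genes and mural markers in 5 of 10 in Jab1 mutants, choroid plexus markers in 2 of 8, and 0 of 14 astrocyte and 0 of 14 neuron markers passed the test. All 8 choroid plexus markers had log2 fold changes above 0 in Jab1 mutants (median 2.09). Their sum was 300 to 4122 CPM in WT, 6517 to 24675 CPM in Jab1 mutants and 5431 to 24096 CPM in double mutants. Most of that sum was Ttr, at 6305 to 23884 CPM in Jab1 mutants. Of the markers of precursors and premyelinating cells, 1 of 14 rose and 0 fell. Of 8 Schwann cell markers 2 reached the filter, and 0 of them passed the test. In double mutants 0 markers of any of these lists passed the test in either comparison. Of all 17716 tested genes, 31 were called higher and 3 lower against WT, and 0 against Jab1 mutants. At an unadjusted p below 0.05, 20 of 20 microglia markers were higher than in WT (median log2 fold change 5.12), as were 1385 of all tested genes. The part of other cells in the levels of the members was not tested. Without double-mutant replicate 3, 0 members were called against WT, where 0 of 17716 tested genes were called lower and 7 higher, so the count shows nothing particular to the members. The log2 fold changes of Opalin and Cnp were then -2.52 and -2.24 (-2.74 and -2.34 with that replicate).

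When libraries were scaled to Sox10, Olig1 and Olig2, transcription factors of the oligodendrocyte lineage, in place of the whole library, the median of all tested genes between Jab1 mutants and WT moved to 2.12, and 59.3% of the tested genes were called higher and 0.344% lower, so the members are read relative to that shift. Under this scaling Mbp was higher in Jab1 mutants (log2 fold change 2.33, SE 0.73, adjusted p = 0.0152, edgeR), Cnp (-1.46, SE 0.58, adjusted p = 0.0384) and Opalin (-2.82, SE 0.65, adjusted p = 0.00409) were lower, and the other 6 members were not called, with Cldn11 at 0.62 and the rest between -0.87 (Mal) and -0.07 (Mobp). Sox10 and Olig1 themselves fell in Jab1 mutants relative to the library, and Olig2 was not called.

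**Figure D5:**
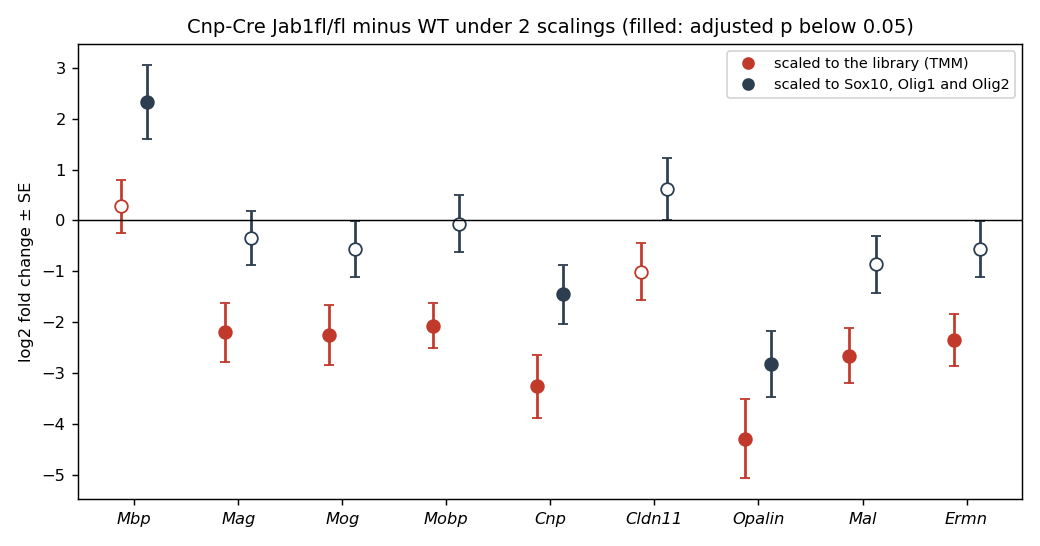
Log2 fold change ± SE of each member between Jab1 mutants and WT with libraries scaled by TMM or to Sox10, Olig1 and Olig2, filled where the adjusted p was below 0.05 (edgeR). Mbp moves from 0.27 to 2.33 and Opalin from -4.29 to -2.82, and 3 members are filled under the second scaling.

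Other genes of the pathway were read from lists. Of 24 other myelin protein genes, 14 fell in Jab1 mutants and 0 rose, with a median log2 fold change of -1.76 and 24 of 24 below 0. Among the smallest p-values of the list were those of Gjc3, a gap junction protein (log2 fold change -2.53), Omg, the oligodendrocyte-myelin glycoprotein (-2.14), and Lpar1, a receptor for lysophosphatidic acid (-2.57), with adjusted p-values of 0.00408, 0.00660 and 0.0126 in edgeR. In double mutants 0 of the 24 passed the test against WT, with a median log2 fold change of -0.98, where 0.0169% of all tested genes were called lower and 0.175% higher. At an unadjusted p below 0.05, 11 of the 24 were lower, against 4.57% of all tested genes. Against Jab1 mutants 0 of the 24 passed, with a median of 0.72, and 0.0% of all tested genes were called.

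Among 12 transcription factors of myelination, 6 fell in Jab1 mutants, namely Olig1 (log2 fold change -2.16, adjusted p = 0.0146), Zfp536 (-2.51, adjusted p = 0.0221), Sox10 (-2.72, adjusted p = 0.0271), Myrf, Nkx6-2 and St18, and the median of the list was -1.82 in edgeR. Olig2 (-0.96) and Tcf7l2 (0.04) did not pass the test. Of 10 genes for splicing and transport of myelin mRNAs, 1 fell, Kif1b, a motor of mRNA transport in processes (log2 fold change -1.15, SE 0.28, adjusted p = 0.0314, edgeR). Qk, the RNA-binding protein quaking, had a log2 fold change of -0.70 (adjusted p = 0.255), and Hnrnpa2b1, which binds the transport element of Mbp mRNA, -0.42 (adjusted p = 0.436). The median of this list was -0.13. In double mutants 0 genes of either list passed the test against WT, where 0.0169% of all tested genes were called lower and 0.175% higher. Against Jab1 mutants 0 genes of either list passed, and 0.0% of all tested genes were called. At an unadjusted p below 0.05 against WT, 4 transcription factors and 1 gene of mRNA transport, Kif1b, were lower, against 4.57% of all tested genes.

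Across the 12 samples the members other than Mbp rose and fell together. Pearson's r of log2(CPM + 1) of each gene with the mean of the other 8 was 0.74 for Cldn11, 0.94 to 0.97 for the remaining 7 and 0.24 for Mbp. These values include the difference between genotypes, and after subtracting the mean of each genotype they were 0.81 for Cldn11, 0.85 to 0.95 for the 7 and 0.55 for Mbp, whose closest member was then Mobp (r = 0.82). Among 10438 other genes whose mean reached 10 CPM, the patterns most like the mean of the members over the 12 samples included those of Sept4 (r = 0.996), Gatm (0.99), Epb41l3 (0.98), Jam3 (0.98), Car2 (0.98), Nipa1 (0.98), Slc48a1 (0.98), Gpm6b (0.98) and Cers2 (0.98). Within genotypes the closest by the same measure included Gatm (0.99), Sept4 (0.99), Epb41l3 (0.98), Smim15 (0.97), Wnt3 (0.97), Slc48a1 (0.97), Rnf130 (0.96), Elovl7 (0.96) and Sqstm1 (0.96). The points share their libraries, so these are descriptions over 12 samples.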

How the data were processed

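RNA-Seq of 12 samples of O1+ CD45- oligodendrocytes, 4 per genotype, was analysed, with genotypes and replicate numbers from the labels of the samples. The authors amplified RNA with a SMART-Seq v4 kit, trimmed paired reads (Trimmomatic 0.32), mapped them by STAR 2.5.3a on GRCm38 and used featureCounts with the basic GENCODE gene set. What the authors deposited is a table of raw counts for 55376 symbols, neither normalized nor filtered. The strand setting and the treatment of reads with several matches are not given in the sources used here. Positions and exon lengths are those of GENCODE release M21 basic on GRCm38, to which 98.2% of the symbols were matched. Promoter sequences are from RefSeq (GRCm38.p6).

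CPM values were computed from the counts with TMM factors of the 12 samples together. Genotypes were compared in edgeR 4.0.16 under R 4.3.3 by its quasi-likelihood test, in a fit of the 8 samples concerned, for genes of 1 CPM or more in 4 or more samples, with Benjamini-Hochberg adjustment over 17716 genes at 0.05. DESeq2 1.42.0, other scalings and filters, the replicate number as a block and each sample left out in turn were the alternatives, and the closing section gives their effect. Ratios were log2 of (count + 0.5) over (Mbp count + 0.5), tested by the two-sided exact permutation test over 70 relabelings. The adjustment over all genes and the ratios of all genes to the mean of the members were added after the values of the members had been seen. The edgeR, DESeq2 and permutation code was tested on simulated data, where edgeR missed many changed genes and DESeq2 found more of them with a larger share of false calls. Whether samples of a genotype came from separate preparations is not stated beyond the pooling of 2 brains, so p-values measure the spread between these samples. In a chi-square test of counts between samples of a genotype, the statistic per degree of freedom was 211 or more, so no library repeated another of its own genotype. Libraries of different genotypes were not compared in this way.

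The text names all 9 members, Cops5 and Cdkn1a as checks of the labels, the 3 genes with the smallest p between Jab1 mutants and WT in the lists of other myelin protein genes, transcription factors and mRNA splicing and transport, and the 10 genes whose pattern was most like the mean of the members, except that values of individual genes are in a few cases not reported here. Other genes named (Galnt5, Ptprc, Olig2, Tcf7l2, Myrf, Nkx6-2 and St18) were chosen after their values were seen. The members and lists were chosen with earlier results of these data known. Of the lists, 4 genes are in both the myelin protein and the mature oligodendrocyte list. Myrf and Nkx6-2 are in both the mature oligodendrocyte and the transcription factor list, and the precursor and mural lists also share a gene. Depth was 61485556 to 153495112 counts per sample, and the reads carry no molecular identifiers.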

Additional observations from a re-analysis of the deposited data

Results flagged for a closer look

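Of 51 sets of 4 samples (levels of the 9 members and the 8 ratios to Mbp in each of 3 genotypes), 9 held a sample far from the other 3 by Dixon's criterion. About 1 in 20, or 2.55 of 51, would be flagged in independent sets with a normal spread. These sets share libraries, the ratios share Mbp and the levels are CPM without a log, so 9 against 2.55 is no measure of excess. Mog was flagged in all 3 genotypes, for WT replicate 5 at 3093 CPM, Jab1-mutant replicate 2 at 878 CPM and double-mutant replicate 1 at 1987 CPM. Double-mutant replicate 1 was also apart for Cldn11 (480.5 CPM) and Opalin (407 CPM), and for the log2 ratio to Mbp of Mobp (-2.84) and Ermn (-5.02). Jab1-mutant replicate 2 was apart for Ermn (362 CPM). For the log2 ratio of Opalin to Mbp, WT replicate 3 was apart at -4.08.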

How the results depend on the processing

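Between Jab1 mutants and WT, 7 members were called, where 435 of 17716 tested genes were called lower. They became 3 with libraries scaled to Sox10, Olig1 and Olig2 (Mbp higher, Cnp and Opalin lower), where 61 genes were lower and 10500 higher. They became 5, without Mag and Mog, with all 12 samples in one edgeR fit (297 genes lower) or with no filter (322 of 36070 lower). With the replicate block in a fit of all 12 samples they became 0, where only 3 of 17716 genes were called lower. The log2 fold changes of the 7 were then -2.57 (Mobp) to -5.02 (Opalin). With a sample left out 3 to 7 members were called, and 174 to 667 of all genes were lower. There were 4 members without WT replicate 5 or Jab1-mutant replicate 1 or 3, and 3 without Jab1-mutant replicate 4. The 7 ratios to Mbp became 3 against the mean of the members. Between double mutants and WT, 0 members were called, where 3 of 17716 genes were called lower. The 0 members became 5 with DESeq2 on 8 samples (199 genes lower) and 5 on 12 (162 lower). With a mean of at least 10 CPM 1 member was called (Cnp), where 17 of 10466 genes were lower. With a sample left out 0 to 5 members were called. There were 5 without double-mutant replicate 1, where 72 genes were lower, and without any other sample 0 of all genes were called lower. The 7 ratios became 6 against the mean of the members (4 lower, 2 higher). Between double mutants and Jab1 mutants, the 0 ratios became 0 to 4 with a sample left out (4 without Jab1-mutant replicate 2). Leaving out a sample can only add to a count of separate ratios, so it is no check of the 7. Scaled to Sox10, Olig1 and Olig2, the median of all tested genes moved to 2.12, 1.27 and -0.82 in the 3 comparisons, a shift that all genes share and relative to which the next values are read. Under it the log2 fold change turned to 0.62 for Cldn11 between Jab1 mutants and WT, to 0.10 for Mog and 0.44 for Cldn11 between double mutants and WT, and to -0.38 for Mobp, -0.17 for Cldn11, -0.0043 for Mal and -0.28 for Ermn between the mutant genotypes. That of Mbp turned to -0.33 (Jab1 mutants against WT) and 0.57 (double against Jab1 mutants) without Jab1-mutant replicate 1, and in the latter to 0.13 without double-mutant replicate 5 and 0.26 with the replicate block. That of Cldn11 between double mutants and WT turned to 0.02 and 0.03 without WT replicates 1 and 5, and to 0.07, 0.03 and 0.14 without double-mutant replicates 2, 3 and 5, and between the mutant genotypes to -0.24 without double-mutant replicate 1. Over all samples left out, these 4 ranged from -0.33 to 0.60, -1.25 to 0.14, -0.31 to 0.57 and -0.24 to 1.22 (Mbp in Jab1 mutants against WT, Cldn11 in double mutants against WT, and Mbp and Cldn11 between the mutant genotypes). The cause was not tested.

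The deviations of same-numbered samples had r = -0.05 to 0.08 between Jab1 mutants and WT, -0.13 to -0.01 between double mutants and WT and -0.19 to 0.08 between the mutant genotypes. Samples with different numbers had r = -0.24 to 0.26, -0.24 to 0.33 and -0.16 to 0.18 in the same order. With 2 or 3 same-numbered pairs per comparison, these values cannot show whether the numbers pair the samples. The replicate block on the 8 samples compared left 7 members called between Jab1 mutants and WT, where 240 of 17716 tested genes were called lower. Only the numbers 1 and 3 occur in both of these genotypes. The other samples are alone in their block, so that fit compares the genotypes within 2 pairs. It is no check of the calls made with all 8 samples. Depth was not varied, and amplified reads without molecular identifiers do not show how many molecules were counted.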

Other observations

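The 5 genes closest to Mbp alone over the 12 samples, chosen after their values were seen, were Ercc3 (Pearson's r of log2(CPM + 1) = 0.89), Bcas1 (0.88), Ccndbp1 (0.87), Timm9 (0.83) and Thoc6 (0.83), none of them a member. Within genotypes they were Tmem186 (0.96), Ccndbp1 (0.93), Rbbp9 (0.93), Gm38642 (0.91) and Sirt2 (0.91). Bcas1 and Sirt2 are expressed in oligodendrocytes. Gm38642 overlaps the member Mobp on the same strand, with 0 shared exon bases, so it is not a separate locus. The values are descriptions over 12 samples that share their libraries.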
